A study of Homo sapiens with 24 samples.

Results

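The aldehyde dehydrogenases described here are 10 genes, ALDH1A1, ALDH1A3, ALDH1B1, ALDH2, ALDH3A1, ALDH3A2, ALDH3B1, ALDH6A1, ALDH7A1 and ALDH18A1. They were found by the gene name that the array's design gives each probe, and 17 of its 34127 probes carried one of these names, 10 of 25992 gene symbols. RNA came from A549 and H1975 cells, a pair of established human lung adenocarcinoma lines. Each line received 0.75 mg/ml Pirfenidone, an anti-fibrotic drug, or the same volume of its solvent PBS, for 6 h or for 24 h. The 8 groups held 3 samples each, and every sample was hybridised to an array of its own, 24 in all. Only 1 dose was used, and each line stands for itself and not for a class of tumors. Nothing in the labels says that the 3 samples of a group were separate cultures, so the p-values measure the spread between these samples, which may be technical.

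Most aldehyde dehydrogenases oxidise reactive aldehydes to carboxylic acids, using NAD+ or NADP+ as the electron acceptor. Some members act on aldehydes that form when alcohol, amino acids or lipids are broken down, and others make retinoic acid from retinaldehyde. Lung airway cells and lung tumor cells are known to contain several of them, and high aldehyde dehydrogenase activity is widely used to mark a subset of tumor cells.

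Expression was read as log2 signal after the array's 75th percentile was subtracted, so that a value of 0 means a probe as bright as that percentile. All 17 probes entered the test, each having been called well above background by the scanner software in every array of some group, as 23827 of the 34127 probes were. A probe passed the threshold when its Benjamini-Hochberg adjusted p in limma was 0.05 or less and its log2 change at least 1 in size. Each gene is represented by its brightest probe over the 24 arrays, and its other probes are given where they differ. The share of probes well above background ran from 62.7% to 69.5% over the arrays, without saturation. All 6 epithelial markers, among them EPCAM and KRT8, were well above background on all 24 arrays. Among lung lineage genes, NAPSA and SFTPC were so on all 24, SFTPB on 10 and the factor NKX2-1 only on the 12 of H1975. Of markers of other cell types, the fibroblast genes COL3A1 and DCN were so on 0 arrays and the T cell gene CD3E on 1, whereas PECAM1, VWF, COL1A2 and PDGFRB were so on the 12 H1975 arrays and on none of A549, and LUM on the 12 A549 arrays and none of H1975. Others of these lists were so in both lines or on few arrays, CD14, CDH5 and COL1A1 on all 24, PTPRC on 23, ITGAM on 15 and PDGFRA on 3. The part of such markers in the differences between the lines was not tested.

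The arrays fell into 4 sets, called runs here, which the names of the scanner files set apart by day, and Pirfenidone and PBS arrays of a line could be paired within runs. Place on the slide followed treatment and time in both lines. Pirfenidone arrays lay at place 1 for 6 h and 3 for 24 h, and PBS arrays at 2 and 4. Place therefore cannot be told apart from treatment or time, and pairing by run or slide does not remove it. The A549 pair of run 1 at 24 h, which is replicate 3, went against the other pairs. Over 23808 probes its Pirfenidone minus PBS differences correlated with those of runs 2 and 3 at r = -0.38 and -0.55, while the pairs of runs 2 and 3 correlated at 0.39. In the other 3 comparisons every such correlation was positive, between 0.29 and 0.64. Whether the Pirfenidone and PBS labels of these 2 arrays were exchanged was not settled by the files used here, and an exchange would turn the sign of this pair's differences. Where leaving the pair out moved a value printed here for A549 at 24 h by 0.1 or more on the log2 scale, the value without it is given too.

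To show what the array read, the probes of the genes that separated the lines most and of the gene whose probes disagreed are printed 5′ to 3′, with hg19 positions from the scanner files. The ALDH1A1 probe lies on the minus strand at chr9:75516136-75516195. The ALDH3A1 probe, on the minus strand, is placed at chr17:19643743-19644417, and the ALDH7A1 probe, also on the minus strand, at chr5:125880700-125882063. Both of these spans are wider than the 60 bases of the probe, so each probe covers stretches that are not adjacent in the genome. Over 127 pairs of probes for different members, the longest run of identical bases was 9, so no member's probe held more than a short stretch of another's. Probes were compared only with each other and not with transcripts, so binding to other transcripts was not tested.
ALDH1A1 A_23_P83098: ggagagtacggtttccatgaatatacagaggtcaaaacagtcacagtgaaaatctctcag
ALDH3A1 A_23_P207213: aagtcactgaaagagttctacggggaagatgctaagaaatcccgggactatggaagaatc
ALDH7A1 A_23_P70231: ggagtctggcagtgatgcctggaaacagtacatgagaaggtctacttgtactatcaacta

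Which aldehyde dehydrogenases set the lines apart without the drug was asked first, by comparing H1975 with A549 under PBS. ALDH1A1 and ALDH3A1 were bright in A549 and at or near background in H1975, ALDH2 and ALDH3A2 were several-fold lower in H1975, and no member was higher in H1975 past the threshold. At 6 h 5 of the 10 members passed, all lower in H1975, where 15.3% of all tested probes passed in that direction. At 24 h 4 of 10 passed, again all lower, against 14.9%. The median log2 difference of the 10 members was -0.73 at 6 h and -0.54 at 24 h, or -0.42 at 24 h without the pair of run 1, beside 0.06 and 0.08 over all tested probes. The lines differed at a large share of all probes, 32.4% and 32.9% in both directions together, with 4071 and 4284 probes higher in H1975.

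**Figure D1:**
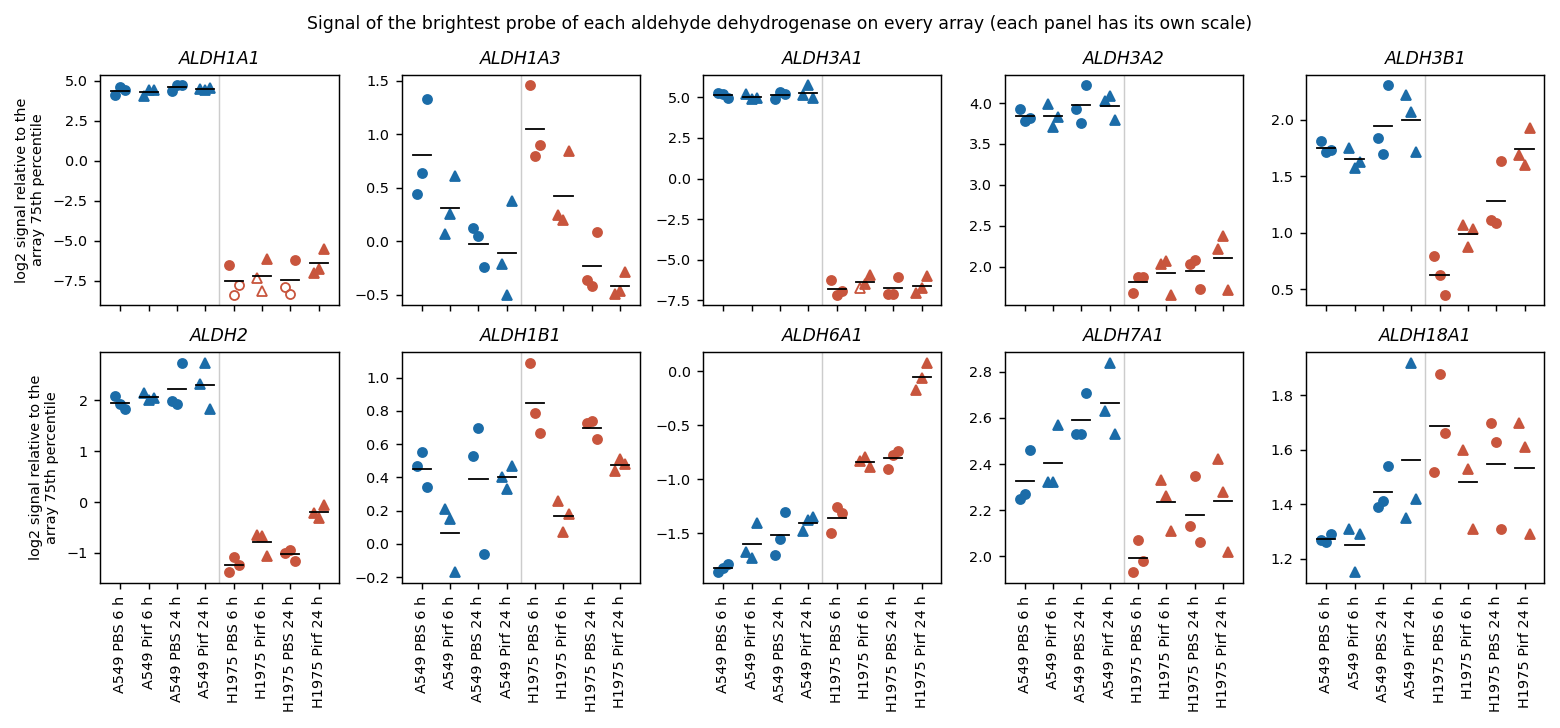
Log2 signal minus the array's 75th percentile (vertical axis, scaled separately in each panel) for the brightest probe of each of the 10 genes in the 8 groups (horizontal axis). Each symbol is 1 array, circles for PBS and triangles for Pirfenidone, blue for A549 and red for H1975, open where the probe was not well above background, and bars are means of 3. ALDH1A1 and ALDH3A1 lie above 4 in A549 and below -5 in H1975, and ALDH6A1 in H1975 is lowest with PBS at 6 h and highest with Pirfenidone at 24 h.

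ALDH1A1 makes retinoic acid in the cytosol and was, with ALDH3A1, far lower in H1975 than in A549. The printed probe read between 6.38 and 6.69, with a median of 6.50, on the 12 A549 arrays. On the 12 H1975 arrays it read between -9.76 and -9.0 and was not well above background on any. The signal was thus a bound in H1975, and A549 was at least 14700-fold higher at 6 h (limma adjusted p = 1.09e-23) and at least 14900-fold higher at 24 h (adjusted p = 1.02e-23). These bounds set the A549 mean over 3 arrays against the mean of the lowest signal that was well above background on each H1975 array. The gene's other probe, A_33_P3379644 at chr9:75540401-75540460, read between 4.03 and 4.72 in A549 and between -8.37 and -5.49 in H1975, where it was well above background on 6 of 12 arrays. By the rule of the highest mean it stands for the gene, and its log2 difference was -11.91 ± 0.54 (SE) at 6 h and -12.06 ± 0.54 at 24 h under PBS, with 1 of 3 H1975 arrays well above background at each time.

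ALDH3A1 oxidises aromatic and lipid-derived aldehydes and is best known from the cornea and from lung tumors. Its brightest probe read 5.26, 5.21 and 4.98 in A549 under PBS at 6 h and -6.23, -7.14 and -6.94 in H1975. At 24 h the values were 4.87, 5.36 and 5.18 in A549 and -7.07, -7.07 and -6.03 in H1975. The lines lay far apart at both times, by -11.92 ± 0.32 (SE, adjusted p = 1.34e-16) and -11.86 ± 0.32 (adjusted p = 1.46e-16) on the log2 scale in limma. This brightest probe, though dim in H1975, was well above background on 11 of its 12 arrays. The printed ALDH3A1 probe was not well above background on any of the 12 H1975 arrays, and by it A549 was at least 3990-fold higher at 6 h and at least 3590-fold higher at 24 h.

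ALDH3A2 removes long-chain fatty aldehydes in the endoplasmic reticulum. Its brightest probe, A_33_P3336617, read 3.93, 3.78 and 3.82 in A549 and 1.68, 1.87 and 1.88 in H1975 under PBS at 6 h. The log2 difference was -2.03 ± 0.17 (SE, adjusted p = 3.42e-09), and -2.02 ± 0.17 at 24 h (-1.9 without the pair of run 1), so H1975 was about 4-fold lower with no overlap. The second probe, designed to another RefSeq transcript of the gene, gave -2.74 ± 0.15 and -2.72 ± 0.15.

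ALDH3B1, an enzyme for medium- and long-chain aldehydes, was lower in H1975 by less. Under PBS at 6 h it read 1.81, 1.72 and 1.73 in A549 and 0.79, 0.62 and 0.45 in H1975, a log2 difference of -1.13 ± 0.17 (SE, adjusted p = 1.23e-05). At 24 h it read 1.84, 1.70 and 2.31 in A549 and 1.11, 1.09 and 1.64 in H1975, and the difference of -0.67 ± 0.17 (adjusted p = 0.00233) missed the fold limit, as did -0.49 without the pair of run 1. The difference at 6 h also missed the threshold by another of its 3 probes, A_33_P3236563 (-0.98 ± 0.23), and by Holm's adjustment (adjusted p = 0.0504).

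ALDH2 is the mitochondrial enzyme that clears acetaldehyde formed from alcohol. It read 2.09, 1.93 and 1.83 in A549 and -1.38, -1.08 and -1.24 in H1975 under PBS at 6 h. The log2 difference of -3.18 ± 0.21 (SE, adjusted p = 1.23e-10 in limma) made it 9.07-fold lower in H1975. At 24 h the values were 1.98, 1.93 and 2.74 in A549 and -1.0, -0.94 and -1.15 in H1975, a difference of -3.25 ± 0.21 (adjusted p = 9.05e-11). Replicate 3 of A549 stood above the other two, and without its PBS and Pirfenidone arrays the difference was -2.99.

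ALDH7A1 takes part in lysine breakdown, and its 3 probes did not agree in size. The printed probe, its brightest, read 2.25, 2.27 and 2.46 in A549 and 1.93, 2.07 and 1.98 in H1975 under PBS at 6 h, a log2 difference of -0.34 ± 0.12 (SE, adjusted p = 0.0248), short of the fold limit. The probes at chr5:125879018-125879077 and chr5:125877562-125877621, which lie further along the transcript on this minus-strand gene, gave -1.96 ± 0.23 and -2.01 ± 0.41 and passed. At 24 h the 3 probes gave -0.40, -1.95 and -1.86 in that order, the last of them -1.99 without the pair of run 1. Averaging the 3 probes gave -1.43 (adjusted p = 1.49e-05) at 6 h, so whether ALDH7A1 passed depended on the probe.

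The other 4 members differed little between the lines or were higher in H1975. ALDH6A1, the mitochondrial methylmalonate semialdehyde dehydrogenase of valine breakdown, was higher in H1975 by 0.46 ± 0.11 (SE, adjusted p = 0.00163) at 6 h and 0.71 ± 0.11 (adjusted p = 2.19e-05) at 24 h on the log2 scale, or 0.82 at 24 h without the pair of run 1. ALDH18A1, which makes the first precursor of proline from glutamate, was 0.41 ± 0.15 (adjusted p = 0.0248) higher at 6 h and 0.10 ± 0.15 (adjusted p = 0.576) at 24 h. ALDH1B1, a mitochondrial relative of ALDH2, was 0.40 ± 0.16 (adjusted p = 0.0353) higher at 6 h and 0.31 ± 0.16 (adjusted p = 0.0936) at 24 h. Its difference at 24 h was 0.09 (adjusted p = 0.597) without the pair of run 1 and 0.47 (adjusted p = 0.018) without A549 PBS replicate 2. ALDH1A3, a second retinoic acid-forming enzyme, gave 0.25 ± 0.26 and -0.21 ± 0.26 (-0.31 without the pair of run 1), and its values overlapped between lines at both times. By adjusted p alone, with no fold limit, 9 members differed at 6 h and 7 at 24 h, against 58.6% and 59.2% of all tested probes.

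**Figure D2:**
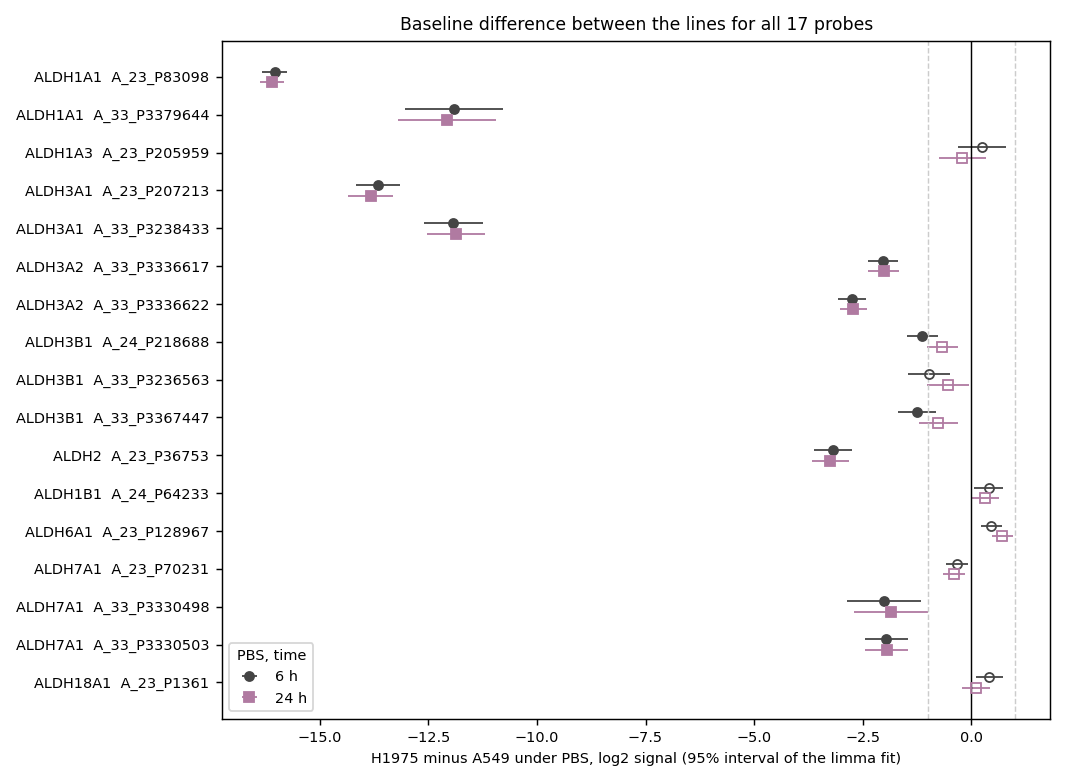
H1975 minus A549 under PBS in log2 signal (horizontal axis) for each of the 17 probes (vertical axis, gene and probe name), at 6 h (grey circles) and 24 h (purple squares), with 95% intervals from limma; filled symbols passed the threshold and dashed lines mark the fold limit. Both probes of ALDH1A1 and ALDH3A1 lie below -11, and the 3 probes of ALDH7A1 lie at -0.34, -1.96 and -2.01 at 6 h.

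No slide held both lines, so slide and line cannot be told apart, but runs 1 and 3 held both. Within these runs at 6 h the difference was -3.21 and -3.01 for ALDH2, -2.14 and -1.91 for ALDH3A2, -0.94 and -1.10 for ALDH3B1, and -11.21 and -12.36 for ALDH3A1.

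What Pirfenidone did to these genes was asked within each line and time, and no member passed the threshold in any of the 4 comparisons. In A549 the shares of all tested probes that passed were 0.176% at 6 h and 0.0126% at 24 h, and in H1975 they were 0.491% and 1.89%. By adjusted p alone, with no fold limit, 0 members changed in A549, where 0.34% of all tested probes did at 6 h and 0.0126% at 24 h. In H1975 by that measure ALDH6A1 rose and ALDH1B1 fell at 6 h, against 1.04% and 0.365% of all tested probes in these directions, or 1.41% in both. ALDH2 and ALDH6A1 rose at 24 h, against 2.91% of all tested probes higher and 6.26% in both directions. An unadjusted p of 0.05 or less was found for 1 and 0 members in A549 at 6 h and 24 h, against 6.01% and 0.953% of all tested probes, and for 5 and 3 in H1975, against 11% and 22%. At the fold limit, an ordinary t-test with arrays paired by run, in place of the moderated test of the study's methods, passed 0 members in each, with or without adjustment. Without a fold limit, its Benjamini-Hochberg adjusted p for the 4 changes named above was between 0.137 and 0.194.

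**Figure D3:**
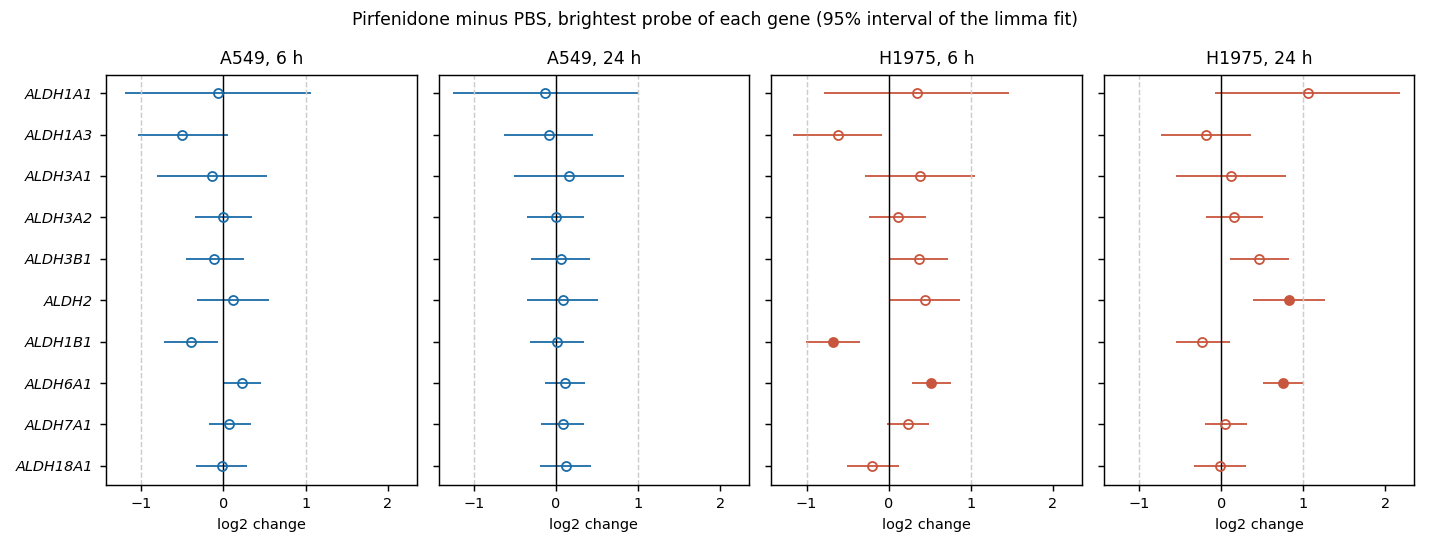
Pirfenidone minus PBS in log2 signal (horizontal axis) for the brightest probe of each gene (vertical axis) in the 4 comparisons, with 95% intervals from limma; filled circles have an adjusted p of 0.05 or less and dashed lines mark the fold limit. The filled circles are ALDH1B1 and ALDH6A1 in H1975 at 6 h and ALDH2 and ALDH6A1 in H1975 at 24 h, and none reaches a log2 change of 1.

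ALDH6A1 had the smallest p of the members under Pirfenidone. In H1975 at 6 h it read -1.5, -1.26 and -1.31 with PBS and -0.83, -0.79 and -0.89 with Pirfenidone. The groups did not overlap, and the log2 change was 0.52 ± 0.11 (SE, limma adjusted p = 0.0245), a 1.44-fold rise. At 24 h it read -0.90, -0.77 and -0.74 with PBS and -0.17, -0.06 and 0.08 with Pirfenidone, a change of 0.75 ± 0.11 (adjusted p = 0.00137) or 1.68-fold. Within runs 1, 3 and 4 the change was 0.61, 0.44 and 0.52 at 6 h and 0.82, 0.73 and 0.71 at 24 h, so every run gave a rise. The call at 24 h held when any 1 of the 6 arrays was left out, and that at 6 h was lost without any of 5 (all but PBS replicate 2), with adjusted p between 0.0599 and 0.127. In A549 the changes were 0.22 ± 0.11 (adjusted p = 0.887) at 6 h and 0.11 ± 0.11 (adjusted p = 1) at 24 h, or 0.19 without the pair of run 1. The change in H1975 exceeded that in A549 by 0.64 ± 0.16 at 24 h, which did not pass (adjusted p = 0.0994), and by 0.56 without the pair of run 1 (adjusted p = 0.332). The adjusted p of this difference was 0.0408 with replicate number as a block and 0.0164 with run as a block, still below the fold limit.

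ALDH2 in H1975 read -1.0, -0.94 and -1.15 with PBS and -0.22, -0.32 and -0.06 with Pirfenidone at 24 h. The 2 groups did not overlap and the log2 change was 0.83 ± 0.21 (SE, adjusted p = 0.0249), a 1.78-fold rise that left H1975 below A549. This call was lost without any 1 of 5 of the 6 arrays, all but Pirfenidone replicate 2, with adjusted p between 0.0532 and 0.131. It was also lost with slide as a block (0.80, adjusted p = 0.0674) and with normexp (0.76, adjusted p = 0.0748), and held with run as a block (adjusted p = 0.0182). PBS replicate 1 was alone on its slide, so the slide block takes this array out of the change. At 6 h the Pirfenidone values of -0.65, -0.67 and -1.06 also lay above the PBS values of -1.38, -1.08 and -1.24, by 0.44 ± 0.21 (adjusted p = 0.443). In A549 at 24 h the PBS values were 1.98, 1.93 and 2.74 and the Pirfenidone values 2.33, 2.73 and 1.83, a change of 0.08 ± 0.21. The run 1 pair differed by -0.91 and the other pairs by 0.35 and 0.80, and without run 1 the change was 0.57 (adjusted p = 0.262). The difference between the lines in the change was 0.75 ± 0.29 at 24 h (adjusted p = 0.289) and 0.26 without the pair of run 1 (adjusted p = 0.943).

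ALDH1B1 changed in the other direction at 6 h. In H1975 it read 1.09, 0.79 and 0.67 with PBS and 0.26, 0.07 and 0.18 with Pirfenidone. The change was -0.68 ± 0.16 (SE, adjusted p = 0.0347), a 1.60-fold fall with no overlap and with -0.92, -0.53 and -0.60 in runs 1, 3 and 4. The adjusted p rose to between 0.0513 and 0.164 when any 1 of the 6 arrays was left out, while the change stayed between -0.77 and -0.56. In A549 at 6 h it read 0.47, 0.55 and 0.34 with PBS and 0.21, 0.15 and -0.17 with Pirfenidone, also without overlap, a change of -0.39 ± 0.16 that did not pass (adjusted p = 0.634). At 24 h the change was -0.23 ± 0.16 in H1975 (adjusted p = 0.434) and 0.01 ± 0.16 in A549, or -0.25 without the pair of run 1. Neither the difference between lines nor that between times passed for ALDH1B1 (adjusted p between 0.751 and 1).

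ALDH1A3 gave lower Pirfenidone means at 6 h in both lines, by -0.50 ± 0.26 in A549 (adjusted p = 0.917) and -0.62 ± 0.26 in H1975 (adjusted p = 0.348). Within runs it differed by -0.72, -0.37 and -0.39 in A549 and by -0.62, -0.56 and -0.69 in H1975, while the groups overlapped. ALDH3B1 in H1975 had higher means with Pirfenidone, by 0.37 ± 0.17 (adjusted p = 0.433) at 6 h and 0.46 ± 0.17 (adjusted p = 0.115) at 24 h. With run as a block the adjusted p of ALDH3B1 at 24 h was 0.0377, at the same change. ALDH1A3 and ALDH3B1 gave -0.09 and 0.06 in A549 at 24 h, and -0.44 and 0.38 without the pair of run 1. ALDH3A1, ALDH3A2 and ALDH18A1 gave changes between -0.20 and 0.38 in the 4 comparisons by their brightest probes, with adjusted p between 0.65 and 1. In A549 at 24 h they gave 0.16, 0 and 0.12, and 0.34, 0.21 and 0.24 without the pair of run 1. Their widest 95% interval was that of ALDH3A1 in H1975 at 6 h, -0.29 to 1.05, which reaches past the fold limit.

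ALDH1A1 in A549, where it was bright, had a change of -0.03 ± 0.14 at 6 h and -0.02 ± 0.14 at 24 h by the printed probe, with 95% intervals of -0.31 to 0.26 and -0.30 to 0.26. In H1975 at 24 h its other probe read -7.91, -8.30 and -6.19 with PBS and -7.01, -6.77 and -5.49 with Pirfenidone. It was well above background on 1 of 3 PBS arrays and on 3 of 3 Pirfenidone arrays. The change of 1.05 ± 0.54 did not pass (adjusted p = 0.269), but it did with run as a block (adjusted p = 0.00436), the differences being 0.71, 0.91 and 1.53 in runs 1, 3 and 4. The printed probe was not well above background on any H1975 array, so it gave no measure of a change there.

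ALDH7A1 probes also parted in H1975 at 24 h. The printed probe changed by 0.05 ± 0.12, and the probes further along the transcript by -0.63 ± 0.23 (adjusted p = 0.114) and -1.28 ± 0.41 (adjusted p = 0.0654). The last of these was well above background on only 1 of 3 Pirfenidone arrays, and neither passed.

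**Figure D4:**
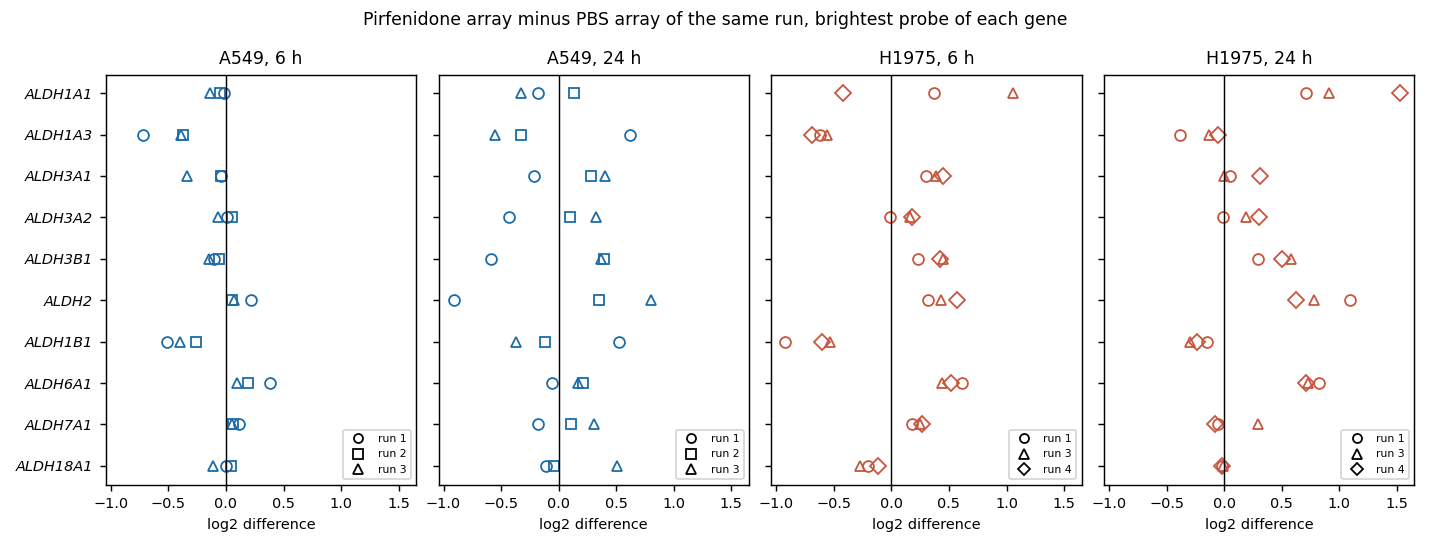
Pirfenidone array minus PBS array of the same run in log2 signal (horizontal axis) for the brightest probe of each gene (vertical axis), with 1 symbol per run, in the 4 comparisons. In H1975 the 3 runs lie on one side of 0 for ALDH6A1, ALDH2 and ALDH1B1, and in A549 at 24 h run 1 lies opposite to runs 2 and 3 for ALDH2, ALDH3B1 and ALDH1B1.

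Groups that did not overlap were not rare in these data. In H1975 at 6 h 4 members lay wholly above PBS, namely ALDH2, ALDH3B1, ALDH6A1 and ALDH7A1, and 1, ALDH1B1, wholly below. Of all tested probes 10.6% and 7.16% did so. At 24 h 2 members lay above and 1 below, against 16.3% and 15.6%, so the counts at 24 h were near the background. In A549 at 6 h 1 member, ALDH6A1, lay above and 1, ALDH1B1, below, against 7.03% and 8.24%.

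Time in culture was compared under PBS alone, 24 h minus 6 h. ALDH1A3 was the only member to pass, in H1975, where it read 1.46, 0.80 and 0.90 at 6 h and -0.36, -0.42 and 0.09 at 24 h. Its log2 change was -1.28 ± 0.26 (SE, limma adjusted p = 0.0239), a 2.43-fold fall, and 0.0839% of all tested probes passed in this direction, 0.315% in both. In A549 it read 0.44, 0.64 and 1.33 at 6 h and 0.12, 0.05 and -0.24 at 24 h, a change of -0.83 ± 0.26 (adjusted p = 0.323, or 0.0416 with run as a block) that was -0.72 without the pair of run 1, and 0 members passed there against 0.109% of probes. The H1975 call was lost when replicate 1 or 3 at 6 h or replicate 1 or 2 at 24 h was left out, with adjusted p between 0.0785 and 0.114. ALDH6A1 in H1975 rose by 0.56 ± 0.11 over this time (adjusted p = 0.0239, below the fold limit), where 0.499% of all tested probes rose by adjusted p alone, and its PBS values at 24 h overlapped its Pirfenidone values at 6 h. The adjusted p was between 0.0574 and 0.103 without any 1 of these 6 arrays. ALDH3B1 in H1975 gave 0.66 ± 0.17 (adjusted p = 0.0895), with an adjusted p of 0.0146 with run as a block and 0.0243 with slide as a block (0.75). No member passed for a difference of the Pirfenidone change between lines or between times, where the shares of all tested probes were 0.0336% at 6 h and 0.193% at 24 h between lines, and 0.0294% in A549 and 0.0042% in H1975 between times. An unadjusted p of 0.05 or less was found for 0 and 2 members between lines at 6 h and 24 h, against 2.63% and 12.2% of all tested probes, and for 0 between times in A549 and in H1975, against 3.04% and 5.86%.

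The family has other genes on the array, of which ALDH1A2 and ALDH8A1 did not enter the test and 7 did. ALDH1L2, a mitochondrial enzyme of folate metabolism, was the one aldehyde dehydrogenase outside the 10 members to pass under Pirfenidone. In H1975 at 24 h it read -3.96, -3.79 and -4.14 with PBS and -2.30, -2.09 and -2.04 with Pirfenidone, a log2 change of 1.82 ± 0.33 (SE, adjusted p = 0.00504), where 0.89% of all tested probes passed in this direction. At 6 h its changes were 0.93 ± 0.33 in H1975 (adjusted p = 0.24) and 1.19 ± 0.33 in A549 (adjusted p = 0.214), without overlap in either line. The difference between the lines in its change at 24 h was 1.90 ± 0.47 (adjusted p = 0.0993), and 1.1 ± 0.33 (adjusted p = 0.357) without the pair of run 1. In A549 at 24 h its PBS value was highest and its Pirfenidone value lowest in replicate 3, at -2.60 and -4.29. ALDH1L1, the cytosolic relative of ALDH1L2, changed in H1975 by 0.89 ± 0.44 (adjusted p = 0.485) at 6 h and 1.17 ± 0.44 (adjusted p = 0.123) at 24 h. Its groups did not overlap at either time. ALDH16A1 went the other way in H1975 at 24 h, by -0.62 ± 0.19 (adjusted p = 0.0571), and neither gene passed. Between the lines under PBS, ALDH5A1, which clears succinic semialdehyde from GABA, was lower in H1975 by -3.07 ± 0.18 at 6 h (adjusted p = 3.57e-11) and -2.91 ± 0.18 at 24 h. ALDH1L1 was at least 1.67-fold higher in H1975 at 6 h, with no A549 PBS array well above background, and differed by 1.54 ± 0.44 at 24 h with 1 of 3. ALDH3B2, a close relative of ALDH3B1, was at least 2.95-fold and at least 5.82-fold higher, again with no A549 PBS array well above background. In the same comparison at 6 h ALDH4A1 gave -0.48 ± 0.17, ALDH9A1 0.52 ± 0.12 and ALDH16A1 -0.24 ± 0.19. By these brightest probes the 3 genes did not pass in any of the 4 Pirfenidone comparisons or between the lines. A dimmer second probe of ALDH4A1, A_32_P192970, passed between the lines at 6 h, lower in H1975 by -1.34 ± 0.26 (adjusted p = 0.000201), and gave -0.97 ± 0.26 at 24 h, or -1.31 without the pair of run 1.

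**Figure D5:**
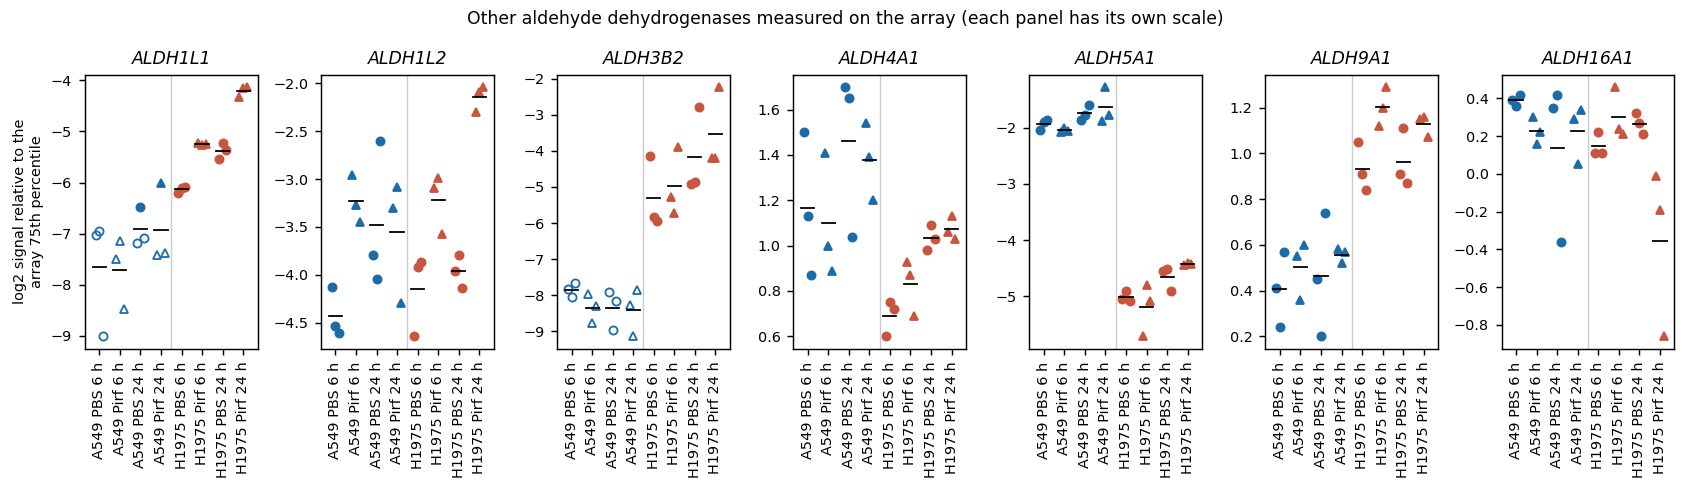
Log2 signal minus the array's 75th percentile (vertical axis, scaled separately in each panel) for 7 further aldehyde dehydrogenases in the 8 groups (horizontal axis), with symbols as in the plot of the members' levels: circles PBS, triangles Pirfenidone, blue A549, red H1975, open if not well above background, bars means of 3. ALDH1L2 in H1975 at 24 h lies between -4.14 and -3.79 with PBS and between -2.30 and -2.04 with Pirfenidone, and ALDH5A1 is lower in H1975 than in A549.

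Genes that work beside these enzymes were described by 8 lists, and none of them passed in a Pirfenidone comparison. In the retinoic acid pathway, 6 of 14 genes were lower and 2 higher in H1975 at both times, with a median of -0.46 at 6 h. These and the next counts stand beside the 15.3% and 14.9% of all tested probes that were lower at 6 h and 24 h, and the 4071 and 4284 of 23827 that were higher. RARB, a retinoic acid receptor, was at least 13.2-fold lower in H1975 at 6 h. CYP26A1, which degrades retinoic acid, was at least 115-fold lower at 6 h, and at 24 h was well above background on 1 H1975 array with a log2 difference of -6.75 ± 0.63, or -7.76 without the pair of run 1. Of 11 aldo-keto and carbonyl reductases, which reduce aldehydes and ketones, 8 were lower in H1975 at 6 h and 6 at 24 h, and none higher. AKR1B10 differed by -9.72 ± 0.26 and AKR1C1 by -9.59 ± 0.36 at 6 h, and AKR1B15, with a sequence close to that of AKR1B10, by -9.54 ± 0.17, so signal may be shared between such relatives.

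Among 9 genes of the NRF2 and aryl hydrocarbon receptor list, NQO1, a quinone reductase, was lower in H1975 by -2.57 ± 0.11 at 6 h and TXNRD1, a thioredoxin reductase, by -2.30 ± 0.15, while CYP1B1, a monooxygenase, was higher by 2.45 ± 0.44. Altogether, 4 genes of this list were higher and 2 lower at each time, and 3 were higher at 24 h without the pair of run 1. In the lysine breakdown list, next to ALDH7A1, GCDH was higher in H1975 by 2.21 ± 0.19 and AASS by 2.70 ± 0.71 at 6 h, 2 of 4 genes, AASS being well above background on 1 of 3 A549 arrays. In the proline list, next to ALDH18A1, OAT was higher by 1.25 ± 0.10 and PRODH lower by -2.33 ± 0.50, with 1 of 5 genes in each direction. Of 12 valine breakdown genes, next to ALDH6A1, ACAD8 (1.5 ± 0.20) and BCAT1 (1.21 ± 0.45) were higher at 6 h and none was lower. Of 6 fatty aldehyde and sphingolipid genes SPHK1 alone passed, higher by 2.39 ± 0.19, and of 3 alcohol dehydrogenases tested ADHFE1 was higher by 1.05 ± 0.31 and ADH1C lower by -1.26 ± 0.51 at 6 h, with 2 of 3 H1975 arrays well above background.

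The genes most like ALDH6A1 over the 24 arrays, after each line's mean was taken out, were RIBC1, LINC00087 and FBXO15, with Pearson r of 0.953, 0.945 and 0.938. For ALDH1B1 they were TRMT12, FJX1 and RANBP6, with r of 0.899, 0.894 and 0.884. These were the highest of 18836 probes compared, and the arrays share runs and treatments.

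Reference promoters were at hand for 8 of the 10 members, as 10 windows of the 250 bases before the start (RefSeq, GRCh38.p14). They were searched on both strands for the CCAAT box (CCAAT), the antioxidant response element core (TGACNNNGC), the xenobiotic response element core (GCGTG) and an amino acid response element (TGATGNAA). The CCAAT box was in 6 of the 10 windows, against 32% of all 35116 windows, and the xenobiotic core in 2, those of ALDH1A3 and ALDH3A2, against 32.2%. The antioxidant core and the amino acid element, held by 10.9% and 3.1% of all windows, were in none, which says only that these letters are not in these windows. ALDH6A1, the member with the smallest p under Pirfenidone, held 4 CCAAT boxes, and 0.87% of all windows held at least as many. ALDH1A1, one of the members far lower in H1975, held 1. Both windows lie on the minus strand, at chr14:74084454-74084703 and chr9:72953054-72953303, and are printed 5′ to 3′ with the boxes in capitals, as CCAAT or its reverse complement ATTGG. A match is a description of the letters and not of a binding site.
ALDH6A1 promoter: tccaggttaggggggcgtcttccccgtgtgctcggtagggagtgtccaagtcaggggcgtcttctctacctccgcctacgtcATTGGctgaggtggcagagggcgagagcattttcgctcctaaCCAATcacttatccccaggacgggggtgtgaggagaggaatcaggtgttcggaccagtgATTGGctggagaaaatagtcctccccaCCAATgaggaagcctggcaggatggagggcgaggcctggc
ALDH1A1 promoter: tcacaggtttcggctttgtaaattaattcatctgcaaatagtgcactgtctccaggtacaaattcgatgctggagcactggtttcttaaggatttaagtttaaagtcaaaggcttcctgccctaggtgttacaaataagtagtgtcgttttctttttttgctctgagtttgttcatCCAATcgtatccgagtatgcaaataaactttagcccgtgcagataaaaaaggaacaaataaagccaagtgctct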

How the data were processed

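Expression was measured in 24 samples of A549 and H1975 cells on one-colour arrays of 60-base probes. Spot intensity came from the deposited scanner output, extracted by the authors with Feature Extraction 11.5.1.1, which subtracts background and marks spots as outliers, saturated or well above background. A second deposited table gives log2 values, in which each probe is centred on its median. It tracked the scanner values at r of 0.9998 or more on each array, with column medians between -0.162 and 0.155, and served as an alternative.

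Processed intensities were put on the log2 scale, and each array's 75th percentile, taken over its 43118 spots other than controls, was subtracted. Spots marked as outliers were omitted and the rest averaged by probe. limma 3.58.1 in R 4.3.3 was used for 1 fit of 8 group means (lmFit and eBayes, 16 residual degrees of freedom) over the 23827 probes that every array of some group had well above background, with Benjamini-Hochberg adjustment over all of them. It took the place of the family-wise permutation adjustment of the study's methods, because 3 arrays against 3 cannot give a two-sided permutation p below 0.1. The steps were tested on simulated data. Alternatives were quantile normalization, normexp (offset 50), the authors' values, other probe filters, replicate, run and slide as blocks, and fits on the arrays compared. H1975 PBS replicate 1 at 24 h was alone on its slide, so slide as a block takes it out of the Pirfenidone and time comparisons. Further ones were Holm's adjustment, no fold limit, the mean of a gene's probes, an ordinary t-test paired by run, and leaving out arrays. All 17 probes matched their gene's RefSeq symbol by accession.

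All members were named with all their probes. Of the other lists, genes that passed under Pirfenidone were named, and up to 3 per list with the largest difference between the lines among those that passed. Some genes of these lists were counted but are not reported here by name. For ALDH6A1 and ALDH1B1, which had the smallest p under Pirfenidone, the 3 most correlated genes were named. The members and lists were chosen with earlier results of these data known, so no count over a list is independent support. The number of arrays limits the precision.

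Arrays with the same replicate number shared a run in A549, and deviated from their group means with r of 0.70, 0.58 and 0.64 for the earlier time and 0.39, 0.08 and -0.10 for the later. The H1975 arrays at 24 h, whose numbers also follow the runs, gave 0.46, 0.53 and 0.72. In H1975 at 6 h the PBS numbers did not match the runs of the Pirfenidone numbers, and arrays of the same number deviated from their group means with r of -0.48, 0.43 and -0.68, against 0.82, 0.50 and 0.70 by run.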

Additional observations from a re-analysis of the deposited data

How the results depend on the processing

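The 10 members' log2 changes in the 12 comparisons gave 2506 values under the alternatives. Of these, 2481 kept their call, 8 lost it and 17 gained it, and 0 of those past the threshold reversed. Most of the 17 came from the setting without a fold limit, where the values were unchanged and only the limit was dropped. The rest were ALDH1A1 with run or slide as a block and ALDH7A1 with its probes averaged. Without a fold limit, 2 members passed under Pirfenidone in H1975 at 6 h and 2 at 24 h, 9 (6 h) and 7 (24 h) in the comparison of lines, and 2 between times under PBS in H1975. Requiring signal well above background in each of the 24 arrays left 8 members in the test, and 3 and 2 passed between the lines in place of 5 and 4, since ALDH1A1 and ALDH3A1 dropped out. With run as a block, 1 member (ALDH1A1, higher) passed in H1975 at 24 h and 1 for the line difference at 24 h (1.17, adjusted p = 0.0367), and with slide as a block 1 in H1975 at 24 h (ALDH1A1, 1.08, adjusted p = 0.0195). The cause was not tested. The fall of ALDH1A3 under PBS in H1975, 1 member in the main result, became 0 with normexp (adjusted p = 0.0966), with only the arrays compared (adjusted p = 0.162) and with Holm's adjustment (adjusted p = 1), and leaving out each array in turn gave between 0 and 1, while it gave the same count in every other comparison.

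The replicate block changed no count of members: 5 and 4 passed between the lines and 0 in each Pirfenidone comparison. The estimated correlation within replicate numbers was 0.223, and 0.457 within runs. Leaving out both A549 arrays of replicate 3 at 24 h moved no count of members, and over all probes it gave 8 in place of 3 for Pirfenidone in A549 at 24 h, 17 in place of 46 for the line difference at 24 h, 3 in place of 7 for the time difference in A549 and 13 in place of 26 for time under PBS in A549. The adjusted p was 0.05 or less for ALDH6A1 in H1975 in 16 of 19 alternatives at 24 h and 11 of 19 at 6 h, for ALDH2 at 24 h in 10 of 19 and for ALDH1B1 at 6 h in 8 of 19. In H1975 at 6 h normexp moved the median change of all probes to 0.29, against 0.05.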
